A study of Mus musculus with 15 samples.

Results

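The regions described here were the widest stretches of accessible chromatin in an ATAC-seq matrix of mouse liver cells. A region belonged to the set when its end minus its start was at least 5000 bp on the mouse build mm10 and it did not lie on the mitochondrial genome. This rule kept 1225 of 93215 nuclear regions (1.31%), and measured signal took no part in it beyond the authors' own drawing of the regions. The 15 libraries formed 5 groups of 3. Untreated mice gave a hepatocyte and a biliary group. Mice treated with DDC (diethoxycarbonyl-dihydrocollidine, a compound that injures the bile ducts) gave a hepatocyte, a biliary and a reprogrammed hepatocyte group. The labels gave no strain, age, sex or transgene, and did not say how reprogrammed cells were told from other hepatocytes. They also named no separate animals, so the spread behind each p-value is that of libraries and may be technical.

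ATAC-seq uses a transposase that cuts open chromatin, so a region's read count follows its accessibility and not the amount of RNA made. Very wide open domains are known to arise where promoters, gene bodies and nearby enhancers are open together, often at genes that a cell type uses heavily. Hepatocytes make plasma proteins and handle lipid and glucose, whereas biliary cells line the bile ducts and form a keratin-rich epithelium. After bile duct injury some hepatocytes take on biliary features, which is called reprogramming.

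The sequences below are the 250 bases before the start of 6 genes whose start lay in a wide region (RefSeq, GRCm38.p6, 5′ to 3′ on the gene's strand). They are shown because these regions carry the contrasts described below. Alb, Apob and Hpx stood for regions that were more open in hepatocytes, Ankrd1 and Lfng for regions that were more open in biliary cells, and Atf3 for a region that answered DDC in opposite directions. Capitals mark matches on either strand to TTGCNNAA (C/EBP type) in the first 3, with TATAAA also marked in Apob, to GGAATG (TEAD type) in Ankrd1 and to GGGCGG (GC box) in Lfng and Atf3.
Alb: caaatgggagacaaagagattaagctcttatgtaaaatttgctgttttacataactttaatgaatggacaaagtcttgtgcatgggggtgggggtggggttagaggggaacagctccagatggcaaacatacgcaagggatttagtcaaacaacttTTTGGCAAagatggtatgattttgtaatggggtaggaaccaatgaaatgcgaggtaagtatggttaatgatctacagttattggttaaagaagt
Apob: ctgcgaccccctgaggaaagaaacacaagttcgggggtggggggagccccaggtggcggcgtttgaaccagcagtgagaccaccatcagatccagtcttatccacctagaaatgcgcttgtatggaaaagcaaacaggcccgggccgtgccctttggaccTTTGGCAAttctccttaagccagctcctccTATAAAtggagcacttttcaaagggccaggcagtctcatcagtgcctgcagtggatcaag
Hpx: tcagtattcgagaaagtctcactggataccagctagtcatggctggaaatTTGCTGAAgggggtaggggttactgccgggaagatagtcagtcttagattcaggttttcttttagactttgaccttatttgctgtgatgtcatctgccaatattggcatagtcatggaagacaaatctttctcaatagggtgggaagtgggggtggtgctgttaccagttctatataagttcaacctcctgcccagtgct
Ankrd1: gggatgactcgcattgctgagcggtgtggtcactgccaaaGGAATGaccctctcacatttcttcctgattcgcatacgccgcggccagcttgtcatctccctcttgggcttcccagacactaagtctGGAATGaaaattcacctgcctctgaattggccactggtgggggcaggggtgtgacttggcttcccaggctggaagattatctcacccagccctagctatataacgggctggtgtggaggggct
Lfng: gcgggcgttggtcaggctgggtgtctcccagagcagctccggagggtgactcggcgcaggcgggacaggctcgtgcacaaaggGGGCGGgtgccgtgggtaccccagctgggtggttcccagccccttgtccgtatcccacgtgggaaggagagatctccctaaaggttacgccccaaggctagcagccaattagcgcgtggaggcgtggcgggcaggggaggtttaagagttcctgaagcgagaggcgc
Atf3: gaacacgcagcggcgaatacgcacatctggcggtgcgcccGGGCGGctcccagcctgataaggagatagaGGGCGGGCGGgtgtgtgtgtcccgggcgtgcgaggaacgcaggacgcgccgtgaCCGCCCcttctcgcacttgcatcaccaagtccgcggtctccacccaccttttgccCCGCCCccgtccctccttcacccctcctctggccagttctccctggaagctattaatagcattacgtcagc

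In mm10 these windows lay at chr5:90460620-90460869 for Alb, chr12:7977427-7977676 for Apob and chr7:105600117-105600366 for Hpx. Those of Ankrd1, Lfng and Atf3 lay at chr19:36119845-36120094, chr5:140607091-140607340 and chr1:191183334-191183583. Over 300-base windows (250 before and 50 after the start), TTGCNNAA was found in 10.2% of all 21237 RefSeq windows and in 9.91% of the 797 windows whose start lay in a wide region. Among wide regions that were lower in DDC biliary cells than in DDC hepatocytes it was found in 18.4% of 125 windows, and among those that were higher in 6.0% of 150. GGGCGG was found in 46.2% of all windows and in 66.8% of those whose start lay in a wide region. It was found in 50.4% of those in the lower regions and in 74.7% of those in the higher regions. TATAAA was found in 12.6% of all windows, 10.2% of those in wide regions, 15.2% of the lower and 8.0% of the higher. For GGAATG these shares were 13.6%, 13.0%, 11.2% and 14.7%. Among the 13114 windows whose start lay in any nuclear region, GGGCGG was found in 65.6%, close to its share in wide regions. In those windows TTGCNNAA was found in 8.12%, TATAAA in 6.75% and GGAATG in 11.9%. A match is a description of letters in these windows and no evidence that a factor binds there.

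The wide regions spanned 5001 to 48527 bp with a median of 6422 bp, against a median of 706 bp over all regions. Of these, 222 were at least 10 kb and 44 at least 20 kb wide, and together they covered 9999545 bp, or 9.87% of all bases in regions. A protein-coding gene body was touched by 1142 wide regions (93.2%), against 60.2% of narrower regions, and the genes touched also numbered 1142, of 21883 (5.22%). Of the 895 wide regions that touched a gene with a RefSeq promoter entry, 65.8% held a start site, against 22.8% of narrower regions. Both traits rose with width below the threshold too, and the part of length alone was not tested. A gene body was touched by 53.5% of regions under 500 bp, 80.8% of 2000 to 4999 bp and 91.8% of 5000 to 7499 bp. Over all regions of these classes 0.826%, 38.2% and 46.4% held a start site. A whole gene body lay inside 154 wide regions, which held 164 such genes, among them Alb, C3, Trf, Fasn, Sdc4 and Atf3. The other 83 touched no protein-coding gene, and 17 of these lay over 50 kb from the nearest one.

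The widest region (48527 bp, chr3:19956360-20004886) lay over Cp, which encodes the copper-carrying plasma protein ceruloplasmin, and reached into Hps3. The next were at Cdh1 (42154 bp), which encodes the epithelial adhesion protein E-cadherin, Dstn (40806 bp), an actin-severing protein, C3 (39876 bp), the central complement component, and Apob (39820 bp), the main protein of very-low-density lipoprotein. Several genes held more than 1 wide region: 172 held at least 2 and 44 at least 3. Cps1, the entry enzyme of the urea cycle, held 6 regions of 5873 to 18915 bp between bases 67124470 and 67233069 of chromosome 1. Aopep and Kifc3 also held 6, and Lpin2 held 5.

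Gene lists of liver cell types and pathways differed in how many of their genes a wide region touched. These lists were written with earlier results of these data known, and their counts are descriptions. A wide region touched 22 of 27 genes of the AP-1 and stress list, which holds immediate early factors such as Fos, Jun, Egr1 and Atf3. It touched 31 of 55 hepatocyte function genes, 12 of 20 hepatocyte transcription factors, 17 of 28 lipid and glucose genes and 18 of 33 biliary genes. Adhesion and matrix genes followed with 15 of 30, growth factor signalling with 14 of 31, inflammation and NF-kB with 12 of 30, Hippo-YAP with 8 of 24 and Notch with 5 of 22. Of 22 leukocyte genes 2 were touched (Cd14 and Cd68), and none of 17 endothelial, 14 stellate and fibroblast or 12 neuronal genes. Only 5.22% of all protein-coding genes were touched, so lists this short can hold none without a real lack.

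**Figure D1:**
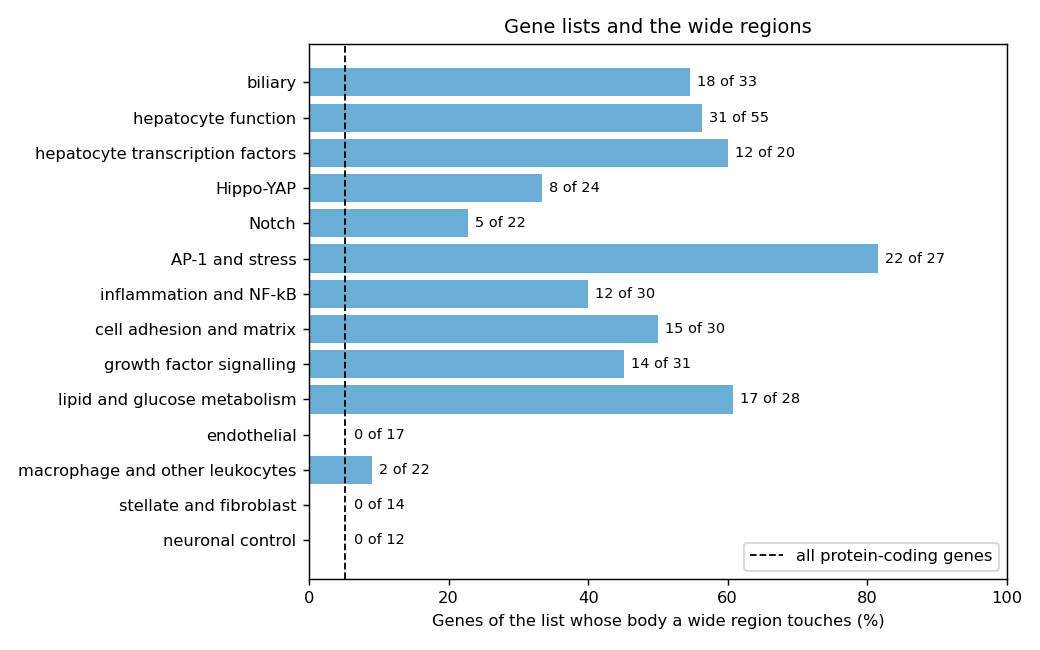
The share of each gene list whose gene bodies a wide region touched (bars, percent, with counts), beside 5.22% of all protein-coding genes (dashed line). The AP-1 and stress list has the longest bar with 22 of 27 genes. The 3 lists of other cell types that stand at 0 are too short to show a lack.

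Values below are nuclear RPM, a region's reads scaled to 1e6 nuclear reads per library, and differences are on the log2(nuclear RPM + 1) scale, estimate ± SE. Depth differed strongly: untreated hepatocyte libraries held 201705 to 605309 nuclear reads and DDC biliary libraries 5151190 to 10395918. DDC hepatocyte libraries held 1191409 to 2342643, reprogrammed 4756891 to 9829886 and untreated biliary 2439831 to 4389653. Mitochondrial regions took a mean of 76.6% of the deposited values in untreated and 34.1% in DDC hepatocytes. It was 9.24% in reprogrammed, 9.86% in DDC biliary and 18.6% in untreated biliary cells. The median wide region held 12 to 38 reads in an untreated hepatocyte library and 350 to 678 in a DDC biliary one. In the 3 untreated hepatocyte libraries 59, 16 and 49 wide regions had 0 reads, which at this depth does not show that they were closed. Summed accessibility of 7 biliary marker genes was 261 to 407 in untreated hepatocytes and 1123 to 1239 in untreated biliary cells, and over the 6 hepatocyte markers with a region it was 2959 to 4322 and 260 to 788. Markers of other cells were low but not absent: 4 endothelial genes summed to 39.7 to 99.1 in untreated hepatocytes, 80.6 to 120 in DDC hepatocytes and 34.6 to 48.0 in untreated biliary cells. The 3 leukocyte genes with a region summed to 47.9 to 59.6 in untreated and 77.6 to 114 in DDC hepatocytes, and their part in the differences below was not tested.

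Wide regions took 10.4% ± 0.757 (SD, n = 3) of nuclear reads in untreated hepatocytes, 11.04% ± 0.0958 in DDC hepatocytes, 10.1% ± 0.346 in reprogrammed cells, 10.1% ± 0.309 in biliary cells after DDC and 10.2% ± 0.118 in untreated ones. All 3 DDC hepatocyte libraries lay above all reprogrammed and DDC biliary libraries. The means were higher in the widest regions only: those of 10000 to 19999 bp took 3.30% of reads in DDC hepatocytes, 2.37% in reprogrammed cells and 2.34% in DDC biliary cells, and those of 20000 bp or more 1.24%, 0.967% and 0.985%. Regions of 5000 to 7499 bp ran the other way in their means, at 4.92%, 5.08% and 5.10%, as did those of 7500 to 9999 bp. Over all wide regions, an exact two-sided permutation test gave p = 0.1 for each of these comparisons, the smallest that 3 against 3 allows, and 0.3 after adjustment over 6 comparisons. In the other 4 comparisons the exact p was 0.4 to 0.9.

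Between untreated biliary cells and untreated hepatocytes, the wide region over Spp1 stood furthest apart. Spp1 encodes osteopontin, a secreted protein that marks bile duct cells, and its region (8290 bp, chr5:104436440-104444729) read 0, 0 and 8.52 nuclear RPM in untreated hepatocytes and 163, 141 and 176 in untreated biliary cells. It read 11.5, 8.62 and 11.8 in DDC hepatocytes, 23.7, 25.7 and 44.1 in reprogrammed cells and 34.9, 105 and 86.7 in DDC biliary cells. The 3 untreated biliary libraries lay above every other library, and hepatocytes of either kind lay below every reprogrammed library. The difference was 6.24 ± 0.66 (limma, adjusted p = 1.4e-05), but it rested on 2 reads in untreated hepatocytes, and the read ratio of 85.0 had a counting interval of 23.5 to 703.

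Of the 1225 wide regions, 374 were higher and 234 lower in untreated biliary cells (limma-trend, adjusted p under 0.05), 49.6% in all, against 33% of all 79075 regions tested (22.1% higher, 10.9% lower). That background cannot be read as a yardstick here, because on this scale regions with few reads run low in shallow libraries. In simulated data, narrower regions without a change were called too often against these libraries. The direction of those calls was not counted. With every library thinned to 201705 reads, 251 wide regions (20.5%) and 5.61% of all regions were called. The median difference was 0.27 over wide regions and 0.39 over all, and 0.10 over all with a pseudocount of 5. The split of calls also moved with the scaling, from 374 higher and 234 lower to 659 and 132 with edgeR's TMM factors, which put the median of all regions at 0.71, to 473 and 188 with DESeq2 and to 1016 and 44 on the deposited scaling. A fit on these 2 groups alone called 353 (28.8%, against 19.4% of all regions). TMM factors called 64.6% of wide and 28.5% of all regions, DESeq2 54.0% and 25.0%, and the deposited scaling 86.5% and 58.1%.

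Biliary genes were among the higher regions: 16 of the 22 wide regions at genes of the biliary list rose and none fell, with a median of 1.61. Cdh1 rose by 1.77 ± 0.13 (adjusted p = 8.6e-07), from 109, 76.0 and 93.7 in untreated hepatocytes to 300, 332 and 319 in untreated biliary cells, without overlap. Ankrd1, a target of the growth regulator YAP, rose by 4.80 ± 0.75 and Flna, which crosslinks actin, by 4.04 ± 0.55. Both had few reads in untreated hepatocytes (0, 6.61 and 25.5 nuclear RPM for Ankrd1, and 2 reads in all for Flna). Of the Hippo-YAP list 6 of 10 wide regions rose, of the adhesion and matrix list 12 of 18 with 1 fall, and of the growth factor list 11 of 18, among them Hbegf, an EGF-receptor ligand (1.69 ± 0.16). Of 24 wide regions at AP-1 and stress genes 15 rose, and Notch genes gave 3 of 5, with Hes1, a Notch target, at 1.53 ± 0.10.

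Hepatocyte genes were among the lower regions: 39 of 43 wide regions of the hepatocyte function list fell and none rose, with a median of -3.08. Apob read 649, 557 and 647 in untreated hepatocytes and 132, 54.5 and 63.1 in untreated biliary cells and fell by 2.98 on the log2 scale (SE 0.34, adjusted p = 2.5e-05). Alb, the gene of serum albumin, fell (-3.06), as did Fgb, a fibrinogen chain (-4.47). Igfbp1, which binds insulin-like growth factors, fell too (-4.36), and so did G6pc, which releases free glucose (-4.28). All 6 regions of Cps1 fell, by differences from -4.16 to -2.80. Lipid and glucose genes gave 17 falls and 2 rises among 26 wide regions, and hepatocyte transcription factors 4 falls and 1 rise among 14. The fall at Cebpa (-0.79), turned to a rise of 1.09 when mitochondrial reads were left in the scaling total.

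After DDC, biliary cells and hepatocytes were compared at greater depth, though the DDC hepatocyte libraries were shallower than the DDC biliary ones. Krt19, a keratin of bile duct epithelium, gave the largest rise: its region (10629 bp, chr11:100136033-100146661) read 5.12, 3.83 and 4.20 in DDC hepatocytes and 80.3, 82.9 and 105 in DDC biliary cells. It read 37.3, 31.0 and 34.3 in reprogrammed cells, so these 3 groups did not overlap. It also read 49.6, 9.91 and 8.52 in untreated hepatocytes and 68.8, 93.9 and 114 in untreated biliary cells. The difference between the DDC groups was 4.06 ± 0.46 (limma, adjusted p = 0.00013). Krt80, another keratin gene, rose by 3.70. Spp1 rose by 2.59 ± 0.66 between these groups (adjusted p = 0.0087), a call that ended with thinned reads.

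Of the wide regions 259 were higher and 244 lower in DDC biliary cells, 41.1% in all, against 28.6% of all regions (16.4% higher, 12.1% lower). The median was 0.11 over wide regions and 0.15 over all. Slc25a47, a mitochondrial carrier gene of liver, gave the largest fall (-3.88 ± 0.48), from 1143, 1191 and 1157 in DDC hepatocytes to 52.4, 118 and 77.7 in DDC biliary cells. Hpx, the gene of the haem-binding plasma protein hemopexin, fell by 3.75 on the same scale, from 441, 507 and 944 to 29.4, 50.1 and 55.4. In both regions every DDC hepatocyte library lay above every DDC biliary library. The split was 555 higher and 228 lower with DESeq2, 438 and 141 on the deposited scaling, and 105 and 105 with thinned reads. These settings called 63.9%, 47.3% and 17.1% of wide regions, against 48.9%, 47.0% and 4.89% of all regions.

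By list, 36 of 43 hepatocyte function regions fell and none rose (median -2.98), and 20 of 26 lipid and glucose regions fell with 1 rise. Pck1, which starts glucose synthesis, fell by 3.73 and Fasn, fatty acid synthase, by 1.32. Of 22 biliary regions 11 rose and none fell (median 1.13), and 9 of 18 adhesion and matrix regions rose with 1 fall. AP-1 and stress genes gave 4 rises and 6 falls among 24, and growth factor genes 7 rises and 3 falls among 18. Errfi1, a feedback inhibitor of the EGF receptor, was among the falls (-1.54 ± 0.19), from 798, 806 and 882 to 211, 384 and 280. Hepatocyte transcription factor genes gave 5 falls and no rise among 14.

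**Figure D2:**
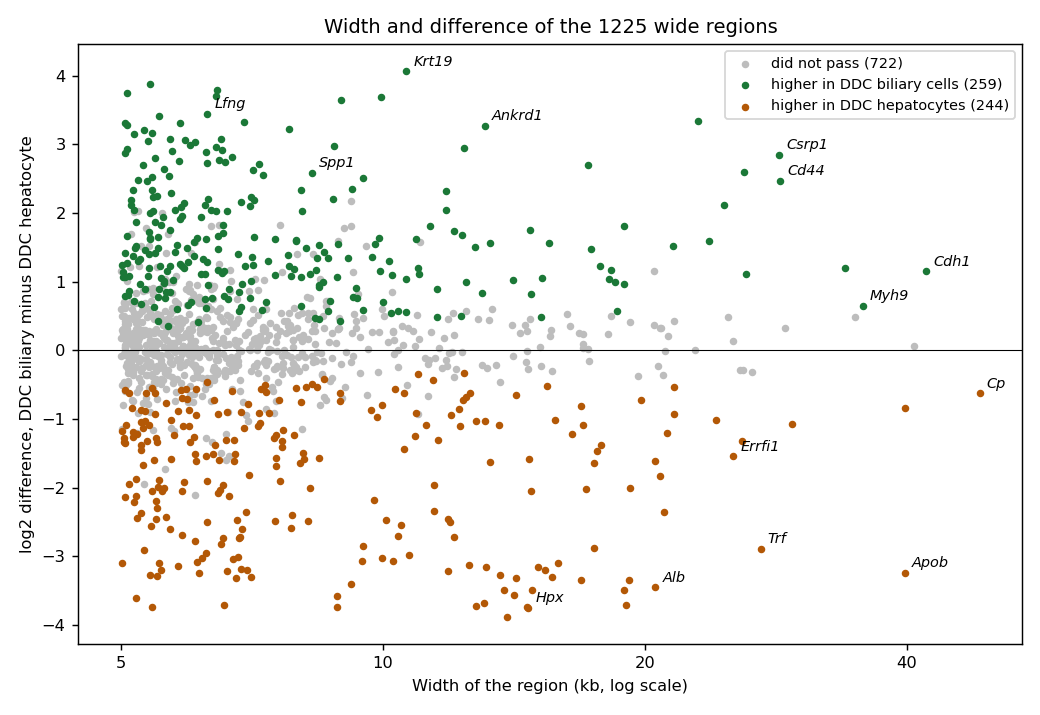
Width of each of the 1225 wide regions (kb, log scale) against its log2 difference between DDC biliary cells and DDC hepatocytes; green points were higher (259), brown points lower (244) and grey points did not pass (722). Among the widest regions Apob (39820 bp) stood at -3.24, Csrp1 (28555 bp) at 2.85 and Cdh1 (42154 bp) at 1.15.

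Narrower regions touching the same genes mostly had the sign of the wide one in this comparison. Of 185 wide regions that rose and had narrower neighbours in their gene, 169 had a neighbour median above 0, and of 168 that fell 137 had one below 0. The neighbours' median difference was 0.84 and -1.08, against 1.46 and -1.58 for the wide regions. In hepatocytes after DDC the sign was shared by 74 of 91 that rose but only 17 of 34 that fell. For those falls the neighbours' median was 0.02, against -0.99 for the wide regions. These regions share libraries and genes, so the counts are descriptions.

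Reprogrammed cells were compared with DDC hepatocytes next. Lfng, which encodes a glycosyltransferase that modifies Notch receptors, read 9.39, 6.70 and 6.71 in DDC hepatocytes and 88.7, 77.8 and 65.2 in reprogrammed cells. It read 90.4, 87.9 and 97.4 in DDC biliary cells, then 58.6, 44.3 and 39.6 in untreated biliary cells and 9.92, 9.91 and 17.0 in untreated hepatocytes. All hepatocyte libraries lay below all reprogrammed and biliary libraries. The rise over DDC hepatocytes was 3.19 ± 0.28 (limma, adjusted p = 0.00027).

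In all, 183 wide regions were higher and 160 lower in reprogrammed cells, 28.0%, against 14.2% of all regions (8.14% higher, 6.06% lower). The median was 0.13 over wide regions and 0.17 over all. The largest rise was at Tesc (3.30 ± 0.43), and Cd44, a hyaluronan receptor, rose by 2.43 ± 0.52 in a region of 28642 bp. Of 43 hepatocyte function regions 30 fell and none rose (median -2.46), including Alb (-3.12 ± 0.39) and Apob (-2.19 ± 0.34). Of 22 biliary regions 9 rose and none fell (median 1.03), of 18 adhesion and matrix regions 7 rose, and of 26 lipid and glucose regions 13 fell. Thinned reads gave 23 higher and 38 lower, and ended the calls for Tesc and Cd44. DESeq2 gave 458 and 201, TMM factors 351 and 198, and the deposited scaling 392 and 103. Thinned reads called 4.98% of wide and 0.65% of all regions, DESeq2 53.8% and 35.3%, TMM factors 44.8% and 31.9%, and the deposited scaling 40.4% and 35.0%. Leaving out DDC hepatocyte library 2 gave 213 calls, and leaving out reprogrammed library 2 gave 212. Without reprogrammed library 1 it was 189, of which 87 were higher and 102 lower.

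No wide region passed between reprogrammed and DDC biliary cells by limma (0% of all regions, with 90 wide regions at an unadjusted p under 0.05). The edgeR test called 47 with TMM factors (3.84%, against 2.79% of all regions) and 52 with total nuclear reads (4.24% against 2.23%). DESeq2 called 85 (6.94% against 4.52%). Limma on these 2 groups alone called 120 (9.80% against 6.37%), 49 higher and 71 lower. For Krt19 the difference was -1.35 ± 0.46 and for Apob 1.05 ± 0.34, neither past the threshold. Reprogrammed cells read 107, 83.3 and 214 at Apob, above all DDC biliary libraries at 44.3, 80.4 and 59.0. A difference that misses the threshold does not show that these cells were alike.

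In biliary cells after DDC, 27 wide regions were higher and 34 lower than in untreated ones, 4.98%, against 3.47% of all regions (2.92% higher, 0.545% lower), while 2.20% of wide regions were higher and 2.78% lower. Both the count and its balance moved with the method: DESeq2 gave 260 higher and 65 lower, edgeR 165 and 103 with total nuclear reads and 119 and 83 with TMM factors, and a fit on the 2 groups alone 258 and 177. A pseudocount of 5 gave 58 and 44, the deposited scaling 73 and 8, and thinned reads 4 and 4. A region 80136 bp from Tomm20 rose (2.59 ± 0.25, adjusted p = 0.00058), from 17.8, 13.5 and 9.57 to 80.6, 80.2 and 93.4. Ahnak2 rose by 2.18 ± 0.23, from 17.0, 21.7 and 21.9 to 99.4, 88.3 and 96.7, without overlap. Ccl2, the gene of a monocyte-attracting chemokine, read 13.6, 14.8 and 15.5 in untreated and 155, 93.4 and 132 in DDC biliary cells (3.0 ± 0.71, adjusted p = 0.028). The Ccl2 call ended when any 1 biliary library was left out (adjusted p 0.0571 to 0.142).

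Among the falls in biliary cells were Cp and Atf3. Cp read 548, 596 and 749 in untreated and 231, 315 and 249 in DDC biliary cells (-1.25 ± 0.19, adjusted p = 0.0053), without overlap. Ccn1, a secreted matrix protein and YAP target, fell by 1.02 and Errfi1 by 1.13. Of 11 inflammation and NF-kB regions 3 rose and none fell, with a median of 0.73 beside 0.06 over all regions. Leukocyte and endothelial markers were also higher in DDC than in untreated biliary libraries, without overlap. The leukocyte genes summed to 58.5 to 68.4 in untreated and 74.0 to 89.4 in DDC libraries, and the endothelial genes to 34.6 to 48.0 and 51.1 to 58.5. The 5 stellate and fibroblast genes went the other way, at 111 to 144 and 83.2 to 99.6, also without overlap. The part of these other cells in the rises at Ccl2 and the other inflammation genes was not tested. The count of wide regions fell whichever library was left out, which also leaves fewer libraries in a group. It was 13 without DDC biliary library 1, 39 without library 2 and 14 without library 3. Without untreated biliary library 1, 2 or 3 it was 50, 28 and 19.

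In hepatocytes, 153 wide regions were higher and 49 lower after DDC, 16.5%, against 12.1% of all regions (9.94% higher, 2.2% lower), a background that shallow libraries affect as described above. None of these calls held with only the 2 hepatocyte groups in the fit (limma, 0 called, 208 at an unadjusted p under 0.05), so each borrows its spread from the other groups. Thinned reads left 17, TMM factors gave 377 higher and 8 lower, the deposited scaling 1070 and 1, and edgeR with total nuclear reads 87 and 29. These settings called 1.39%, 31.4%, 87.4% and 9.47% of wide regions, against 0.416%, 6.97%, 47.8% and 1.47% of all regions. Leaving out untreated hepatocyte library 2 gave 319 calls and leaving out DDC hepatocyte library 1 gave 105. Cdh1 rose by 0.76 ± 0.13, from 109, 76.0 and 93.7 to 171, 167 and 133, without overlap, and kept its call with thinned reads. Of 24 AP-1 and stress regions 13 rose and none fell (median 0.63, beside 0.32 over all regions), with Fosb at 1.42 ± 0.25 and Atf3 at 0.90 ± 0.14. Spp1 rose by 2.44 ± 0.66, a call that ended with DESeq2, with edgeR on total nuclear reads and without any 1 DDC hepatocyte library.

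The response to DDC differed between the cell types at 55 wide regions, 4.49% against 2.35% of all regions. Of these differences (biliary minus hepatocyte) 16 (1.31%) were above 0, against 0.554% of all regions, and 39 (3.18%) below 0, against 1.8%. The shallow untreated hepatocyte libraries enter this contrast, so its background is no yardstick either. The balance moved with the scaling, to 10 above and 252 below with TMM factors, 4 and 685 on the deposited scaling and 45 and 58 with DESeq2. These settings called 21.4%, 56.2% and 8.41% of wide regions, against 5.62%, 27.5% and 3.91% of all regions. Atf3, a stress-induced transcription factor, was among the 55 wide regions. Its region (25748 bp, chr1:191161698-191187445) read 317, 281 and 366 in untreated and 601, 593 and 602 in DDC hepatocytes, and 1075, 1082 and 1390 in untreated and 379, 507 and 616 in DDC biliary cells. It read 511, 488 and 494 in reprogrammed cells. Every DDC hepatocyte library lay above the untreated ones, and every DDC biliary library lay below the untreated ones. The difference of the effects was -2.16 ± 0.19 (limma, adjusted p = 0.00014), and Atf3 alone was called with thinned reads.

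Of 24 AP-1 and stress regions 6 differed in this way, all below 0, with Fosb at -1.95 ± 0.36, a call that ended without DDC biliary library 1. Ccn1 gave -1.71 ± 0.23 and Hes1 -1.04 ± 0.13. Cd44 gave the largest difference above 0 (2.98 ± 0.73, adjusted p = 0.044), which ended when any 1 DDC hepatocyte, DDC biliary or untreated biliary library was left out (0.0519 to 0.136). The count ranged from 8 without DDC biliary library 1 to 181 without untreated hepatocyte library 2. It was 17 with only the 4 groups in the fit.

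**Figure D3:**
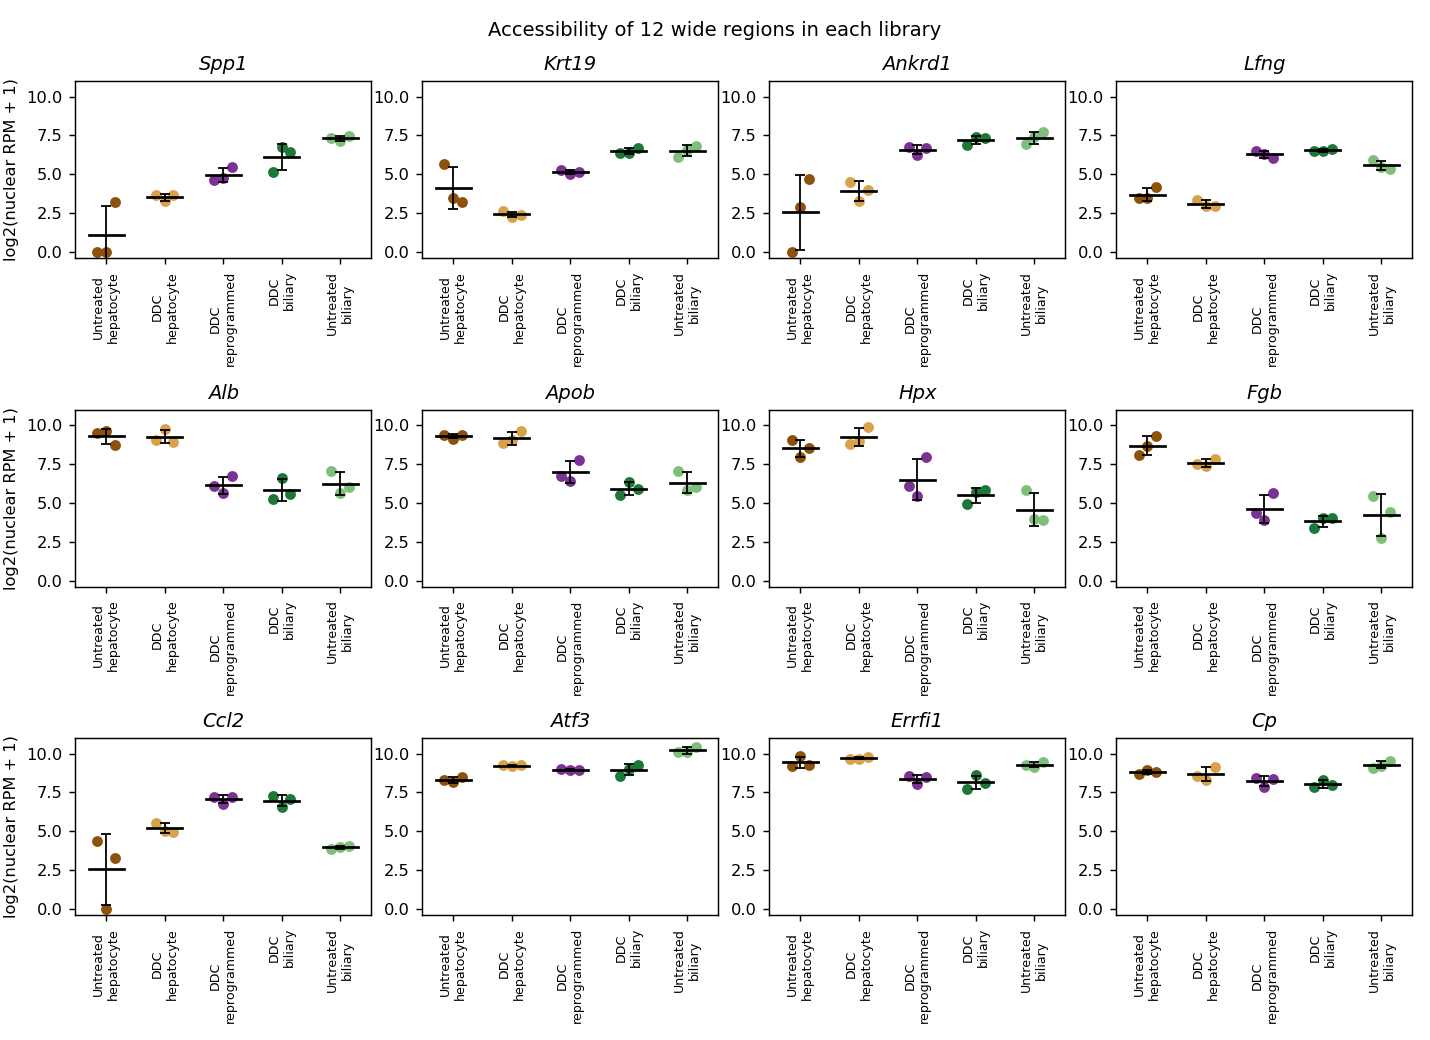
Accessibility of 12 wide regions as log2(nuclear RPM + 1) in each of the 15 libraries (points), with the group mean and SD (bars, n = 3). Spp1, Krt19, Ankrd1 and Lfng are higher in biliary than in hepatocyte groups, Alb, Apob, Hpx and Fgb lower, and Atf3 is higher in DDC than untreated hepatocytes and lower in DDC than untreated biliary cells.

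Between the DDC biliary and hepatocyte groups the share called was higher at 10000 bp or more than in any narrower class: 35.9% of regions of 5000 to 7499 bp were called, 41.2% of 7500 to 9999 bp, 59.6% of 10000 to 19999 bp and 59.1% of the 44 regions of 20000 bp or more. Below 5000 bp the share did not follow width: it was 19.3% under 500 bp, 34.1% at 500 to 999 bp, 29.2% at 1000 to 1999 bp and 27.1% at 2000 to 4999 bp. Regions of 500 to 999 bp were thus called nearly as often as those of 5000 to 7499 bp. Wider regions also hold more reads: the median SE in this comparison was 0.63 under 500 bp and 0.21 at 20000 bp or more. The part of depth in these shares was not tested.

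**Figure D4:**
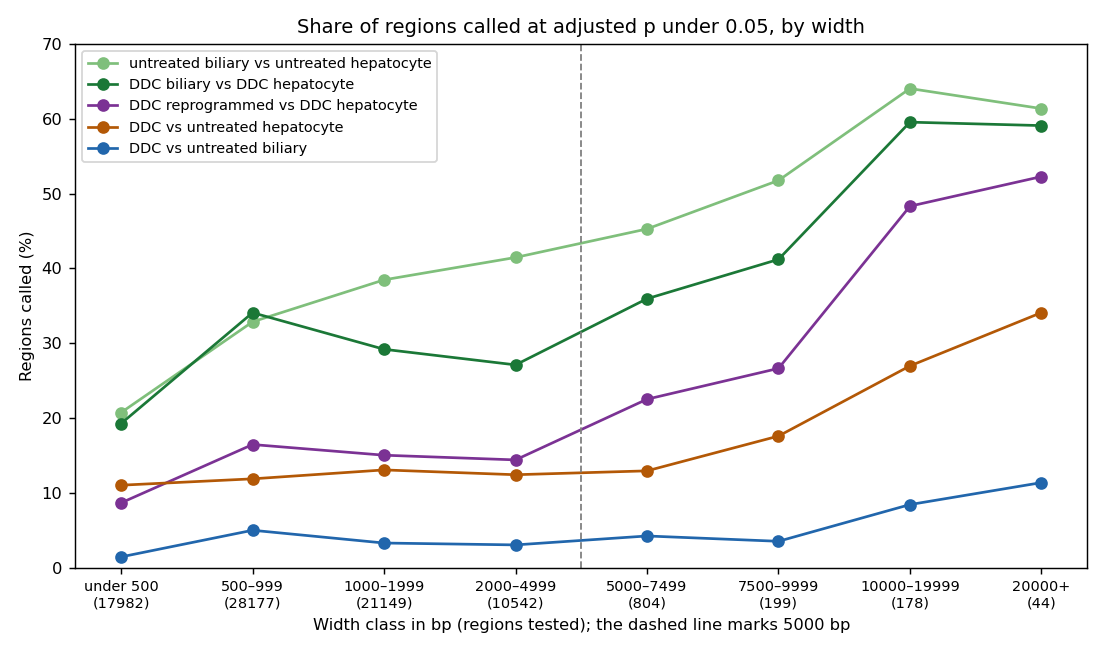
Percent of tested regions called at adjusted p under 0.05 (y) in 8 width classes (x, with the number tested), for 5 comparisons. Between the DDC groups the share is 34.1% at 500 to 999 bp, 27.1% at 2000 to 4999 bp, 35.9% at 5000 to 7499 bp and 59.1% at 20000 bp or more.

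At the threshold itself, the narrowest regions inside included those at Tcf7l2 (5001 bp) and Bid (5002 bp), and the 3 widest outside lay near Irf2bp2 (4999 bp) and at Chic2 (4997 bp) and Abhd17c (4996 bp). Tcf7l2 averaged 59.7 nuclear RPM in DDC biliary cells and Bid 51.9, while Chic2 averaged 48.8 and Abhd17c 64.8. These values lie in one range on both sides of the threshold.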

How the data were processed

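ATAC-seq libraries from sorted mouse liver cells were analysed from the 1 matrix of values that the authors deposited. The submitters' processing notes name Bowtie2 (alignment), SAMtools, MACS2 (peaks) and bedtools with build mm10, with no settings, and how duplicates and overlapping regions were handled is not stated. The deposited values carry the authors' name TPM but behave as RPM: within 0.02 of a read, all values of at most 100 reads were whole multiples of a library's smallest step, with no division by region length. Columns were rescaled to 1e6 without the 2 mitochondrial regions.

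The test was limma-trend (limma 3.58.1, R 4.3.3) on log2(nuclear RPM + 1), with all 15 libraries in 1 fit, a minimum mean of 1 nuclear RPM (79075 regions kept), and p-values adjusted over all of these by Benjamini-Hochberg. Alternatives used edgeR 4.0.16, DESeq2 1.42.0, other pseudocounts, filters and scalings, thinned reads, and each library left out. The fit was tested on simulated data. There, wide regions without a change were seldom called. Narrower regions without a change were called too often against the shallow untreated hepatocyte libraries, and these calls were not split by direction or by reads. Background shares in those comparisons are therefore not read as a yardstick. The check first failed for such narrow regions, and its pass rule was narrowed afterwards while the planned fit was kept. Every library was simulated with the same spread, which real libraries need not share. The simulation therefore does not show that the fit holds for the wide regions of these data.

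Gene bodies and promoters came from RefSeq tables (GRCm38.p6). Named regions are the 12 widest, those at Spp1, the 5 largest rises and falls called per comparison, up to 4 of each gene list and 3 on each side of the threshold. Some named regions are not reported here. Other regions printed were chosen after their values were seen. The members, lists and rules were chosen with earlier results of these data known. Figures and tables used Python 3.11.15, pandas 2.3.3, numpy 2.4.6, scipy 1.17.1 and matplotlib 3.10.9.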

Additional observations from a re-analysis of the deposited data

Results flagged for a closer look

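A difference of the DDC effect between biliary cells and hepatocytes (biliary minus hepatocyte, log2, limma) was tested and passed at 55 wide regions. The difference was below 0 at Prdm16 (-3.18), Unc5b (-2.88), Slc2a2 (-2.21), Atf3 (-2.16), Fosb (-1.95), Dusp5 (-1.82) and Ccn1 (-1.71). It was also below 0 at Nr4a1 (-1.60), Fxyd1 (-1.57), Krt18 (-1.51), Errfi1 (-1.40), Cp (-1.12) and Hes1 (-1.04). It was above 0 at Cd44 (2.98), Basp1 (2.95), Pmepa1 (2.92), BC034090 (2.57), Shroom3 (2.26), Lfng (1.56) and Nfkbia (1.01). Atf3 was called under all 22 alternatives run, and Ccn1 and Hes1 under all but thinned reads. Of the 22 alternatives, the call ended under 17 at Lfng, 15 at Prdm16 and at Shroom3, 13 at Cd44 and 12 at Krt18. It ended under 10 at Basp1, Cp, Slc2a2 and Unc5b, 9 at Dusp5, 7 at BC034090, 5 at Nfkbia and Pmepa1, 3 at Errfi1 and 2 at Fosb. With thinned reads Atf3 alone of the regions named here was called.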

How the results depend on the processing

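Calls among wide regions were counted again under each alternative. The cause of a change was not tested unless the alternative has fewer reads or samples by construction. For untreated biliary cells against hepatocytes (608 calls) the count was 1060 on the deposited scaling, 353 with only the compared groups and 251 with thinned reads. For hepatocytes after DDC (202) it was 1071 on the deposited scaling, 385 with TMM, 116 with total nuclear reads, 0 with only the compared groups and 17 thinned. For biliary cells after DDC (61) it was 102 with pseudocount 5, 202 with TMM, 268 with total reads, 325 with DESeq2, 435 with only the groups and 8 thinned. Between DDC biliary cells and hepatocytes (503) it was 783 with DESeq2 and 210 thinned. Between reprogrammed cells and DDC hepatocytes (343) it was 549 with TMM, 574 with total reads, 659 with DESeq2, 528 with only the groups and 61 thinned. Between reprogrammed and DDC biliary cells (0) it was 4 with pseudocount 5, 2 deposited, 47 with TMM, 52 with total reads, 85 with DESeq2 and 120 with only the groups. For the DDC effects' difference (55) it was 689 deposited, 262 with TMM, 103 with DESeq2, 17 with only the groups and 1 thinned. Leaving out 1 library gave, in the same order, 479 to 674, 105 to 319, 13 to 50, 381 to 449, 189 to 291, 0 to 0 and 8 to 181.

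The difference in the share of reads ranged, with 1 library left out, from -0.558 to 0.195 points (untreated biliary minus hepatocyte), 0.292 to 1.04 (DDC minus untreated hepatocyte), -0.262 to 0.0414 (DDC minus untreated biliary), -1.11 to -0.808 (DDC biliary minus hepatocyte), -1.12 to -0.790 (reprogrammed minus DDC hepatocyte) and -0.178 to 0.186 (reprogrammed minus DDC biliary). On the deposited scaling 8 of 167 named calls reversed: untreated biliary against hepatocyte Srebf1 1.14 (0.075 with TMM), Cebpa 1.09, C3 0.86 and Sdc4 0.34, DDC against untreated hepatocyte Foxa1 1.02 (0.040 with TMM) and Ctnnd1 0.59, DDC biliary against hepatocyte Irf2bp1 0.11, and the difference of effects Nfkbia -0.41. Thinning ended 89 of the 167 and the fit on compared groups 44. The deviations of libraries with the same replicate number correlated at -0.119 to 0.209, with 4 of 30 pairs over 0.1, and no label says that a number marks a shared animal or day, so the numbers were not taken to pair the libraries. Within the DDC groups, however, all 9 such pairs were above 0 (0.0189 to 0.209), a hint from the data that these libraries may share a source. Of 18 pairs with different numbers 16 were below 0 (down to -0.174). Deviations from a group mean sum to 0 within the group, so these signs follow largely from the same-number pairs and are no separate evidence. With the replicate block the counts were 621, 202, 73, 512, 343, 0 and 51. Low depth in untreated hepatocytes limits every comparison with them.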
